A study of Mus musculus with 8 samples.

Results

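The 10 genes described here govern how pyruvate, the end product of glycolysis, enters mitochondrial metabolism. They encode pyruvate carboxylase (Pcx), 3 core subunits of the pyruvate dehydrogenase complex (Pdha1, Pdhb and Dlat), the 4 kinases that inhibit that complex (Pdk1 to Pdk4) and the 2 subunits of the mitochondrial pyruvate carrier (Mpc1 and Mpc2). They were chosen by symbol among the 24537 genes of the deposited count table, and each was found once. RNA was measured by poly(A) RNA-seq in 8 samples of isolated pancreatic islets from untreated male mice aged 12 weeks, 4 WT and 4 Wfs1KO, the second group labelled as a knockout of Wfs1, which encodes the endoplasmic reticulum protein wolframin. The strain, the kind of Wfs1 allele and whether animals were pooled are not given in the sources used here. Exon counts came to between 15810830 and 27057617 per library.

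Pyruvate crosses the inner mitochondrial membrane through the carrier and then has 2 main fates. The dehydrogenase complex turns it into acetyl-CoA and is switched off when a kinase phosphorylates its E1 alpha subunit, while pyruvate carboxylase, a biotin enzyme, turns it into oxaloacetate. Beta cells are known for abundant pyruvate carboxylase and little lactate dehydrogenase, so that glucose carbon is directed to mitochondria, where its metabolism is coupled to insulin secretion.

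The upstream sequences of the 2 genes whose RNA differed between genotypes are shown because their promoters are where their transcription is controlled. All 10 genes had a window in the RefSeq promoter table (GRCm38.p6, the build of mm10). The 250 bases before the annotated start are printed 5′ to 3′ in the direction of the gene, at chr19:4510222-4510471 on the plus strand for Pcx and at chr2:71872974-71873223 on the plus strand for Pdk1. Capitals mark the letters CACGTG (an E-box), ACGTG and CCAAT in Pcx, and ACGTG and GCGTG, which form the core of hypoxia response elements, in Pdk1, each searched on both strands.
Pcx: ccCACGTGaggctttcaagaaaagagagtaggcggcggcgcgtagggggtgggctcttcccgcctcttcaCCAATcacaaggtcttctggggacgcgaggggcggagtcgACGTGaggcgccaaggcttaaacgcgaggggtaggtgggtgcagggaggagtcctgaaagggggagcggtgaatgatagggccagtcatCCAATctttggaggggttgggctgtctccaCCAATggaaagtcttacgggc
Pdk1: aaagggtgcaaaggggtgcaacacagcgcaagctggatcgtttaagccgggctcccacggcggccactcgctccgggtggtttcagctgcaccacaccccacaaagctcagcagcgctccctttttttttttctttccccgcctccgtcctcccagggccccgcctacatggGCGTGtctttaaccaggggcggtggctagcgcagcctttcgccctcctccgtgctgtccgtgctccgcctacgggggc
The Pcx window held 1 CACGTG, starting 248 bases before the start, which also gives 2 of the window's 3 ACGTG matches, and it held 3 CCAAT matches, at 180, 51 and 21 bases. Of 17594 windows of the same length, 1 for each gene of the count table that has one, 6.85% held CACGTG, 18% ACGTG and 35.9% CCAAT. Among the 10 genes, the Pdk2 window also held 1 CACGTG, 2 ACGTG and 3 CCAAT matches, and the Pdhb window 1 ACGTG and 3 CCAAT. Neither of these genes passed the test described below. The Pdk1 window held 1 GCGTG, 78 bases before the start, and no ACGTG, and GCGTG was found in 34.5% of all windows and in those of 7 of the 10 genes. Pcx has another RefSeq start at position 4594319 of chromosome 19 and Pdk1 another at position 71874904 of chromosome 2. The counts are summed over the exons of 1 RefSeq entry for each gene and do not show which start was used.

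Before the genotypes were compared, the levels of the 10 genes were ordered per exon length, as RPKM (reads per kilobase of exon, scaled for library size). In WT islets Pdha1 stood highest (55.7 ± 2.0 RPKM), followed by Pcx (49.7 ± 5.28 RPKM), Pdhb (39.6 ± 2.31 RPKM) and Mpc2 (32.5 ± 3.54 RPKM; SD, n = 4 for all levels). Then came Pdk4, Dlat and Pdk2 at 15.7 ± 2.18, 15.4 ± 0.600 and 15.4 ± 0.985 RPKM, Pdk1 at 10.5 ± 0.364 RPKM, Pdk3 at 8.95 ± 0.413 RPKM and Mpc1 at 4.24 ± 0.635 RPKM. WT libraries overlapped between Pdha1 and Pcx, between Pdhb and Mpc2, and between Pdk4, Dlat and Pdk2, so the order within these groups lies inside the spread between samples. In Wfs1KO islets Pcx (34.1 ± 0.827 RPKM) lay below Pdhb (39.6 ± 1.12 RPKM) in every library and overlapped Mpc2 (33.4 ± 4.43 RPKM), while the other genes kept their places. Mpc2 has 847 bases in the count table but 1025 in its GENCODE transcript, a length that would lower its RPKM. Its overlaps with Pdhb and Pcx hold for the shorter length and were not recomputed.

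**Figure D1:**
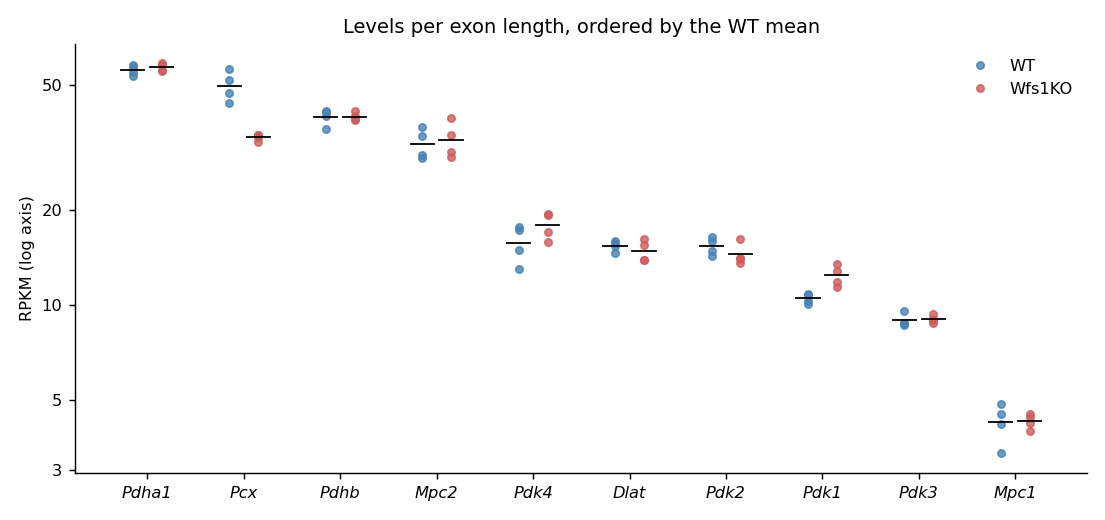
RPKM of each gene on a log axis, ordered by the WT mean, with points for the 4 WT and 4 Wfs1KO libraries and bars for group means. Pcx lies above Pdhb in WT at 49.7 RPKM and below it in Wfs1KO at 34.1 RPKM, and Mpc1 is lowest in both.

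Some of these levels include reads that may belong to other genes. The exons of Pdha1 overlap those of Map3k15 on the opposite strand over 603 bases, and no strand option was used in counting. Map3k15 had 4762 to 8675 counts per library, more than Pdha1 (2394 to 4477), and did not differ between genotypes beyond the threshold (log2 fold change -0.036, edgeR adjusted p = 0.746). Of the 50-base stretches of the Mpc1 transcript 44.2% also occur in transcripts of other genes, among them Mpc1-ps and 4930506C21Rik, and of Pdhb 30.3% occur in Gm6123. How reads from such stretches were counted is not given in the sources used here, so the levels of Mpc1, with only 56 to 109 counts per library, and of Pdhb are uncertain. Pcx, Dlat, Pdk1, Pdk2, Pdk3 and Mpc2 shared no 50-base stretch with another gene's transcripts, and Pdk4 shared 1.43%.

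With the levels set, the question was whether RNA of these enzymes differs in islets labelled Wfs1KO. Pyruvate carboxylase RNA fell by 31.4% in Wfs1KO islets, RNA of the kinase Pdk1 rose by 18.2%, and the other 8 genes, among them all 3 subunits of the dehydrogenase and both subunits of the carrier, did not pass the test. All 10 genes passed the filter on low counts. A gene was called where edgeR's quasi-likelihood test gave a Benjamini-Hochberg adjusted p under 0.05 over 15733 tested genes. The share called was 18.9% of all tested genes, made up of 10.4% with more RNA and 8.49% with less RNA in Wfs1KO, so 2 of 10 is close to the share among all genes. The genotypes did not overlap in 2 of the 10 genes and in 22.6% of all tested genes. The median log2 fold change was 0.012 over the 10 genes and 0.013 over all tested genes.

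Wfs1 itself, the targeted gene, stood at 179 ± 15.6 CPM (counts scaled to a common library size) in WT and 107 ± 11.8 CPM in Wfs1KO islets (edgeR adjusted p = 5.06e-05), so that much of its RNA remained in every library labelled Wfs1KO. The counts are a sum over exons and do not show which part of the gene was altered. Markers of beta cells fit the labelled tissue, with Ins2 at 114882 CPM in WT. Of 10 beta cell markers 8 fell and Iapp, named after its value was seen, rose, with a median log2 fold change of -0.65 and a summed level of 163206 to 209021 CPM in WT and 110443 to 135696 CPM in Wfs1KO. Of 10 endothelial markers 10 rose (median 0.53, summed level 561 to 649 CPM in WT and 771 to 905 CPM in Wfs1KO), and of 9 stellate cell and pericyte markers 3 rose, which were Rgs5, Pdgfrb and Acta2 (median 0.70, 182 to 272 CPM and 315 to 373 CPM). Of 5 delta and PP cell markers 3 rose, which were Hhex, Sst and Ghsr (median 0.33, 4030 to 5002 CPM and 4748 to 6942 CPM). Of 6 alpha cell markers 0 passed (median 0.089, 15727 to 20612 CPM and 18597 to 25963 CPM). Of 7 macrophage markers 0 passed (median 0.48, 92.0 to 161 CPM and 97.3 to 233 CPM). Of 6 duct cell markers 1 rose and 5 did not pass (median -0.19, 328 to 376 CPM and 301 to 375 CPM). Acinar markers, from exocrine tissue, varied widely within both genotypes (summed level 29514 to 66616 CPM in WT and 9097 to 62251 CPM in Wfs1KO). No marker of these lists was at 0 counts in all libraries. In bulk islets fewer cells of a type and less RNA per cell cannot be told apart.

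Pcx (NM_001162946, chromosome 19, 4510472 to 4621752 in mm10, plus strand) supplies oxaloacetate to the tricarboxylic acid cycle. Its level in CPM, given here and for all genes in the order of replicates 1 to 4, was 195, 181, 213 and 231 in WT islets and 143, 136, 143 and 141 in Wfs1KO islets. Every Wfs1KO library lay below every WT library, and the Wfs1KO libraries lay closer together (SD 3.41 CPM, against 21.8 CPM in WT). The log2 fold change was -0.54 (SE 0.069, 95% interval -0.69 to -0.39, edgeR adjusted p = 0.000117), a level 1.46-fold lower. Within replicates 1 and 2 it was -0.45 and within replicates 3 and 4 it was -0.66, both called. The call was kept under all 20 alternatives, between -0.66 and -0.44. The authors' deposited table gives -0.54 with an adjusted p of 3.00e-11. Beta cell markers fell in the same libraries, as given above, and their part in the lower Pcx level was not tested.

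The dehydrogenase subunits showed no such difference. Pdha1 (NM_008810, chromosome X) encodes the E1 alpha subunit, which the kinases phosphorylate. It stood at 156, 152, 162 and 164 CPM in WT and at 157, 158, 166 and 164 CPM in Wfs1KO. The groups overlapped almost fully, and the interval of the difference ran from -5.37% to 9.76% of the WT level (log2 fold change 0.027, SE 0.050, edgeR adjusted p = 0.762).

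Pdhb (NM_024221, chromosome 14), the E1 beta subunit, stood at 58.5, 53.5, 60.8 and 60.5 CPM in WT and at 58.5, 60.7, 57.1 and 57.3 CPM in Wfs1KO. Its interval ran from -7.81% to 8.79% (edgeR adjusted p = 0.985). Dlat (NM_145614, chromosome 9), the E2 subunit that carries the acetyl group on lipoate, stood at 63.2, 58.6, 61.8 and 64.2 CPM in WT and at 56.0, 55.8, 62.3 and 65.2 CPM in Wfs1KO. All WT libraries of Dlat lay within the range of the Wfs1KO libraries, and the interval ran from -12.1% to 5.84% (edgeR adjusted p = 0.633). Changes of the size seen in Pcx lie outside the intervals of all 3 subunits.

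**Figure D2:**
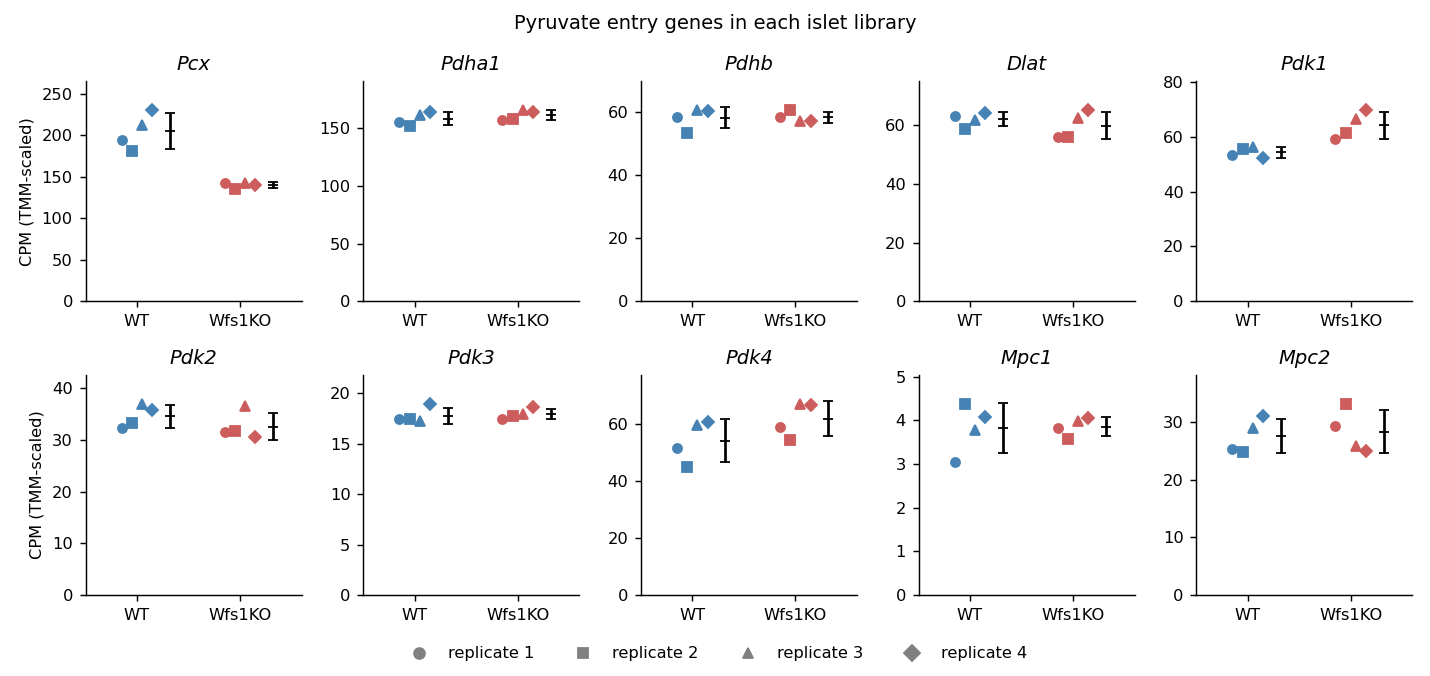
CPM of the 10 genes in each library, with replicate numbers as marker shapes and the group mean ± SD (n = 4) beside the points. The Wfs1KO libraries lie below all WT libraries for Pcx (136 to 143 against 181 to 231 CPM) and above them for Pdk1 (59.0 to 69.9 against 52.1 to 56.2 CPM).

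Set against the dehydrogenase, Pcx was lower in Wfs1KO by a similar factor. The ratio of Pcx to Pdha1 RPKM was 0.890 ± 0.0634 in WT, with a range of 0.821 to 0.969, and 0.600 ± 0.0186 in Wfs1KO, with a range of 0.589 to 0.628. The ratio of Pcx to Pdhb was 1.25 ± 0.0786 in WT and 0.860 ± 0.0421 in Wfs1KO, also with no overlap. Within the complex the ratios overlapped between genotypes, with Pdha1 to Pdhb at 1.41 ± 0.0448 and 1.43 ± 0.0752 and Pdha1 to Dlat at 3.61 ± 0.0966 and 3.83 ± 0.204. These ratios are descriptions without a test.

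The 4 kinases are products of separate genes and phosphorylate the same subunit. Pdk1 (NM_172665, chromosome 2, 71873224 to 71903858 in mm10, plus strand), a known target of the hypoxia-inducible factor HIF-1, stood at 53.4, 55.5, 56.2 and 52.1 CPM in WT and at 59.0, 61.3, 66.6 and 69.9 CPM in Wfs1KO. Every Wfs1KO library lay above every WT library. The log2 fold change was 0.24 (SE 0.061, 95% interval 0.11 to 0.37, edgeR adjusted p = 0.0137), and the authors' deposited table gives 0.22 with an adjusted p of 0.0154. It was 0.12 within replicates 1 and 2 (SE 0.083, adjusted p = 0.343) and 0.33 within replicates 3 and 4 (SE 0.074, adjusted p = 0.0132). The difference between the pairs was not itself tested, so the rise cannot be called uneven. The call was lost without Wfs1KO replicate 3 (log2 fold change 0.21, adjusted p = 0.0610) or Wfs1KO replicate 4 (0.19, adjusted p = 0.0627). Endothelial markers rose in the same libraries, as given above, and their part in the Pdk1 level was not tested.

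Pdk4 (NM_013743, chromosome 6), the kinase known to be induced by fasting through FOXO and PPAR factors, stood at 51.5, 44.7, 59.6 and 60.7 CPM in WT and at 58.9, 54.4, 67.1 and 66.5 CPM in Wfs1KO. The groups overlapped, but each Wfs1KO library exceeded the WT library of the same replicate number, and in both genotypes replicates 3 and 4 stood above replicates 1 and 2. The log2 fold change was 0.19 (SE 0.0998, edgeR adjusted p = 0.232), and Pdk4 passed with the replicate number as a block (0.19, SE 0.056, adjusted p = 0.0308). Whether equal numbers pair the samples is not known. Markers of fat cells stood at a summed 12.1 to 15.3 CPM in WT and 13.5 to 21.3 CPM in Wfs1KO, and 3 of the 5 (Adipoq, Lep and Plin1) had too few counts to be tested. Of the 2 tested, both named after their values were seen, Fabp4 rose (log2 fold change 0.45, edgeR adjusted p = 0.0323) and Cidec stood at -0.26 (adjusted p = 0.761). Fabp4 stood at 11.7 ± 2.01 CPM in WT and 15.9 ± 2.55 CPM in Wfs1KO, and Cidec at only 0.944 ± 0.162 and 0.764 ± 0.544 CPM. The summed level was thus mostly that of Fabp4, a single gene. Endothelial markers rose in the same libraries, as given above. The part of fat or endothelial cells in the Fabp4 and Pdk4 levels was not tested.

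Pdk2 (NM_133667, chromosome 11), a widely expressed kinase, stood at 32.3, 33.4, 37.1 and 35.9 CPM in WT and at 31.5, 31.7, 36.5 and 30.7 CPM in Wfs1KO. Its difference had an interval from -15.3% to 4.39% (edgeR adjusted p = 0.432). Pdk3 (NM_145630, chromosome X) stood at 17.4, 17.4, 17.2 and 19.0 CPM in WT and at 17.4, 17.8, 17.9 and 18.6 CPM in Wfs1KO. The Pdk3 libraries of both genotypes lay in the same range, with an interval from -8.73% to 11.2% (edgeR adjusted p = 0.934).

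Pdk4 and Pdk2 together made up most of the kinase RNA per length. Of the summed RPKM of the 4 kinases, Pdk4 took 31.0% ± 2.54 in WT and 33.2% ± 1.46 in Wfs1KO, and Pdk1 took 20.8% ± 1.58 and 23.0% ± 0.925, with overlap in both. The share of Pdk2 was 29.6% to 31.3% in WT and 24.4% to 28.2% in Wfs1KO, without overlap, although Pdk2 itself did not pass the test. The ratio of Pdk1 to Pdk2 was 0.684 ± 0.0455 in WT and 0.860 ± 0.0893 in Wfs1KO, also without overlap. The summed kinase level overlapped, at 50.6 ± 3.16 RPKM in WT and 53.9 ± 3.40 RPKM in Wfs1KO, as did its ratio to Pdha1, at 0.908 ± 0.0263 and 0.948 ± 0.0343. The overlap of the sum holds on the TMM scale, and levels of the kinases by TPM are given at the end. Taken by replicate number, the Wfs1KO library was the higher in all 4 pairs for the kinase sum and its ratio to Pdha1. The same held for the shares of Pdk1 and Pdk4. These quantities share the same kinase values and are not independent, and the pairing by number is not established. They are a description without a test.

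**Figure D3:**
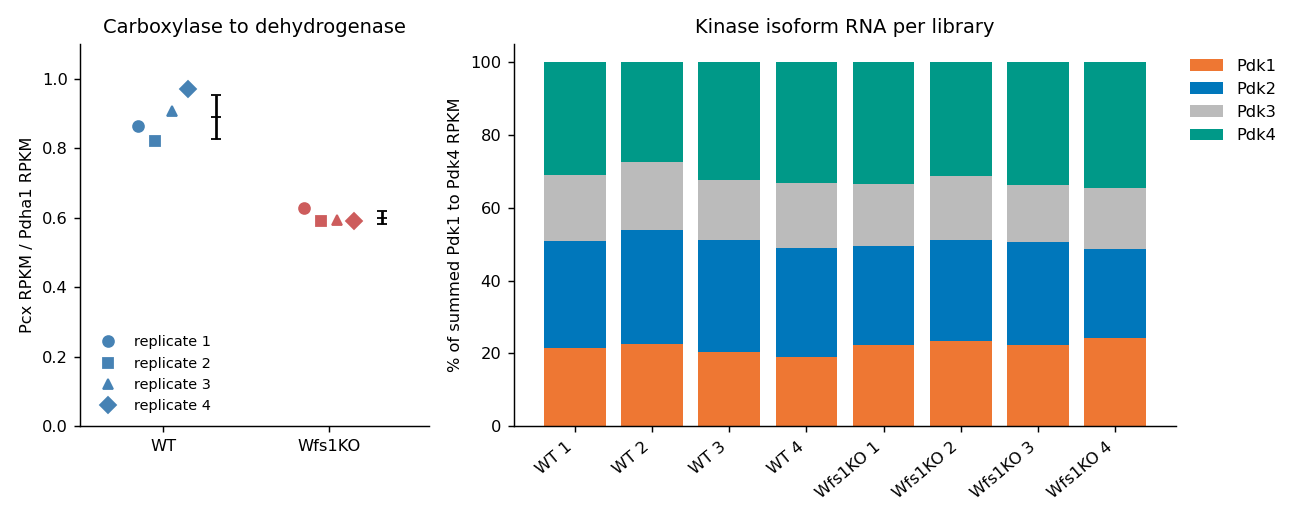
Left, the ratio of Pcx to Pdha1 RPKM per library with the group mean ± SD (n = 4), 0.821 to 0.969 in WT and 0.589 to 0.628 in Wfs1KO. Right, stacked bars of each kinase's share of the summed Pdk1 to Pdk4 RPKM in each library, in which the Pdk2 share is 29.6% to 31.3% in WT and 24.4% to 28.2% in Wfs1KO.

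The carrier is a complex of Mpc1 and Mpc2, and neither gene passed the test. Mpc1 (NM_018819, chromosome 17) stood at 3.05, 4.39, 3.78 and 4.07 CPM in WT and at 3.82, 3.58, 3.98 and 4.06 CPM in Wfs1KO. With so few counts its interval was wide, from -20.1% to 27.4% (edgeR adjusted p = 0.965). Mpc2 (NM_027430, chromosome 1) stood at 25.3, 24.8, 29.0 and 31.0 CPM in WT and at 29.3, 33.2, 25.8 and 24.9 CPM in Wfs1KO. Its replicates went opposite ways: in replicates 1 and 2 both Wfs1KO libraries exceeded both WT libraries, and in replicates 3 and 4 both lay below them.

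The Mpc2 log2 fold change was 0.042 over all libraries (SE 0.099, edgeR adjusted p = 0.821), 0.29 within replicates 1 and 2 (SE 0.099, adjusted p = 0.0384) and -0.25 within replicates 3 and 4 (SE 0.089, adjusted p = 0.0927). The difference between the pairs was not tested, and the labels do not say what the replicate numbers mark. These pairs also parted on the first principal component over all genes, which held 37.9% of the variance. Mpc2 RPKM was 7.78 ± 1.23 times that of Mpc1 in WT and 7.87 ± 1.5 times in Wfs1KO, subject to the doubt about Mpc1 reads above.

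**Figure D4:**
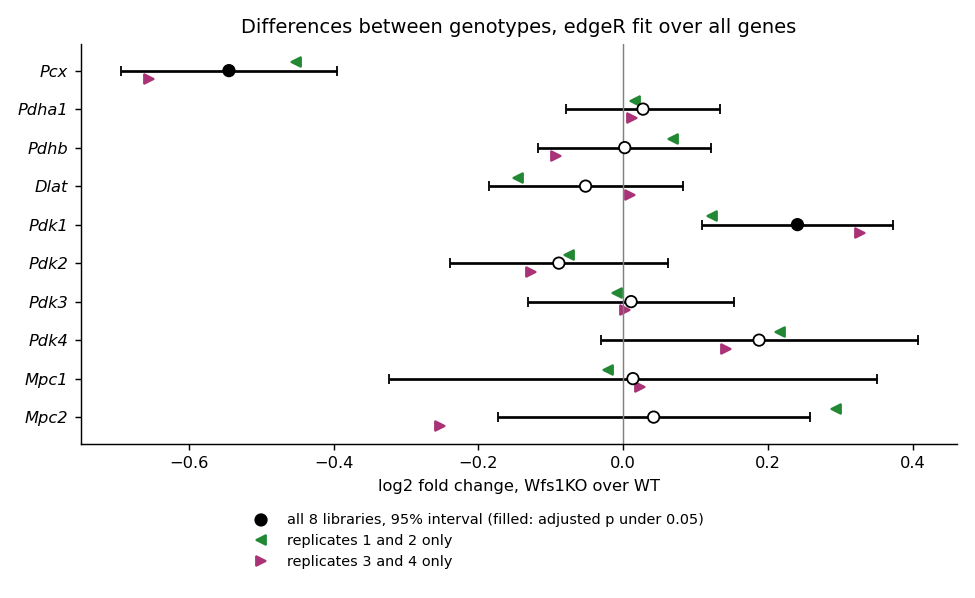
Log2 fold changes of Wfs1KO over WT from the fit over all genes, with 95% intervals (circles, filled where the adjusted p was under 0.05), and the same within replicates 1 and 2 or replicates 3 and 4 (triangles). Pcx is negative in both pairs, Pdk1 and Pdk4 are positive in both, and Mpc2 is 0.29 in one and -0.25 in the other.

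The genes differed in how closely their libraries agreed. The pooled SD of log2 CPM within genotypes was 0.046 for Pdha1 and 0.054 for Pdk3, against a median of 0.13 over all tested genes. It was 0.18 for Pdk4, 0.17 for Mpc2 and 0.17 for Mpc1, and these 3 genes gave the widest intervals of the 10. The widest was that of Mpc1 (log2 fold change -0.32 to 0.35), which also had the fewest counts, 56 to 109 per library.

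The remaining parts of the dehydrogenase system were examined from lists. Of its other 2 subunits, the E3 subunit gene Dld (92.0 ± 3.73 CPM in WT, 91.8 ± 4.40 CPM in Wfs1KO) and the E3-binding protein gene Pdhx (14.1 ± 1.51 and 13.6 ± 0.520 CPM) had log2 fold changes of -0.0041 and -0.053, neither passing the edgeR, DESeq2 or weighted limma-voom test or an unadjusted p under 0.05. The phosphatases that reverse the kinases were the catalytic subunit genes Pdp1 (20.99 ± 4.17 and 16.8 ± 0.255 CPM) and Pdp2 (13.1 ± 1.01 and 11.7 ± 1.103 CPM) and the regulatory subunit gene Pdpr (19.2 ± 1.38 and 18.3 ± 0.742 CPM). Of these 3, 0 passed with edgeR, DESeq2 or limma-voom with quality weights and 1, Pdp1, had an unadjusted p under 0.05 (log2 fold change -0.32, adjusted p = 0.0699). Without WT replicate 2, Pdp1 passed (-0.42, adjusted p = 0.0123), and within replicates 3 and 4 it stood at -0.52 (adjusted p = 0.0225), while without WT replicate 4 it was -0.18 (adjusted p = 0.186). Pdp1 also passed with replicates 1 and 2 blocked against 3 and 4 (-0.31, adjusted p = 0.0435) but not with the replicate number as a block (-0.31, adjusted p = 0.0707).

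Genes that supply lipoate, thiamine and biotin to these enzymes gave 0 calls among 9 tested with edgeR or DESeq2, 1 with limma-voom with sample quality weights and 1 at an unadjusted p under 0.05 (median log2 fold change -0.0093). That 1 gene was Hlcs, named after its value was seen, which encodes the ligase that attaches biotin to carboxylases (log2 fold change -0.30, edgeR adjusted p = 0.0807, weighted limma-voom adjusted p = 0.0380). It stood at -0.62 within replicates 1 and 2 (adjusted p = 7.23e-05), passed without WT replicate 4 (-0.36, adjusted p = 0.0473) or Wfs1KO replicate 3 (-0.40, adjusted p = 0.0185), and had a range of -0.62 to -0.027 over the 20 alternatives.

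Among 15 tested genes that make, use or export pyruvate and lactate 3 rose, 2 fell and 10 did not pass (median log2 fold change 0.25, against 0.013 over all tested genes). Counts called in this and the other lists stand beside a share of 18.9% called among all tested genes, and no list was tested as a set. Gpt2, the mitochondrial alanine transaminase that interconverts pyruvate and alanine, rose from 19.8 ± 3.87 to 42.5 ± 5.03 CPM (log2 fold change 1.11, edgeR adjusted p = 0.000432). Within replicates 3 and 4 its log2 fold change was 1.18, but the adjusted p was 0.149. Pck2, the mitochondrial enzyme that turns oxaloacetate into phosphoenolpyruvate, rose from 155 ± 12.7 to 217 ± 16.2 CPM (0.48). The pyruvate kinase gene Pkm fell from 481 ± 29.9 to 387 ± 10.4 CPM (-0.31), with an adjusted p of 0.0547 within replicates 1 and 2.

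Of the other 2 called genes of that list, both named after their values were seen, the second pyruvate kinase gene Pklr fell (-0.31), a call lost within replicates 3 and 4 (adjusted p = 0.150) and without TMM scaling (0.0615). Me1, the cytosolic malic enzyme that makes pyruvate from malate, rose (0.28, edgeR adjusted p = 0.0453), a call lost with the replicate block (adjusted p = 0.0619), with DESeq2 (0.0830) and on leaving out any of 5 libraries, which were numbers 2, 3 and 4 of WT and numbers 2 and 4 of Wfs1KO (0.0854 to 0.138).

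Of 10 genes for the next steps of oxaloacetate and acetyl-CoA 2 rose, 2 fell and 6 did not pass (median 0.038). The aspartate aminotransferase gene Got1 rose from 27.6 ± 1.81 to 41.3 ± 3.54 CPM (log2 fold change 0.58, edgeR adjusted p = 0.000100) and the cytosolic malate dehydrogenase gene Mdh1 rose by 0.34, with an adjusted p of 0.0518 within replicates 3 and 4. The ATP citrate lyase gene Acly fell from 1660 ± 109 to 1183 ± 83.9 CPM (-0.49). The citrate synthase gene Cs, chosen once its value was known, stood at 69.7 ± 4.54 and 71.9 ± 4.51 CPM (edgeR adjusted p = 0.698).

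Of 11 genes of homologous dehydrogenases and other biotin carboxylases 1 rose, 2 fell and 8 did not pass (median -0.0059). Bckdk, the kinase of the branched-chain dehydrogenase and a relative of the Pdk family, rose from 70.0 ± 4.52 to 85.8 ± 3.59 CPM (log2 fold change 0.30, edgeR adjusted p = 0.00281), with an adjusted p of 0.0522 within replicates 3 and 4. The acetyl-CoA carboxylase gene Acaca, a biotin enzyme like Pcx, fell by 0.33. Dlst, the E2 subunit of oxoglutarate dehydrogenase, fell by 0.16 (edgeR adjusted p = 0.0437), a call lost with the replicate block (0.0607) and on leaving out WT replicate 3, WT replicate 4 or each of the 4 Wfs1KO libraries in turn (0.0584 to 0.146).

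Of 10 transcription regulators known to act on kinase genes 1 rose, 2 fell and 7 did not pass (median -0.13). Epas1, which encodes HIF-2 alpha and is abundant in endothelial cells, rose from 87.6 ± 6.48 to 128 ± 11.2 CPM (log2 fold change 0.55, edgeR adjusted p = 0.000145), in the same libraries as the endothelial markers above. Their part in the Epas1 level was not tested. Ppard fell by 0.33, and the coactivator gene Ppargc1a fell from 6.99 ± 1.26 to 4.37 ± 1.06 CPM (-0.66, edgeR adjusted p = 0.0216), a call lost without WT replicate 1 (0.0607) or WT replicate 2 (0.0684). Hif1a, named after its value was seen, stood at 134 ± 7.497 and 137 ± 7.64 CPM (edgeR adjusted p = 0.689).

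**Figure D5:**
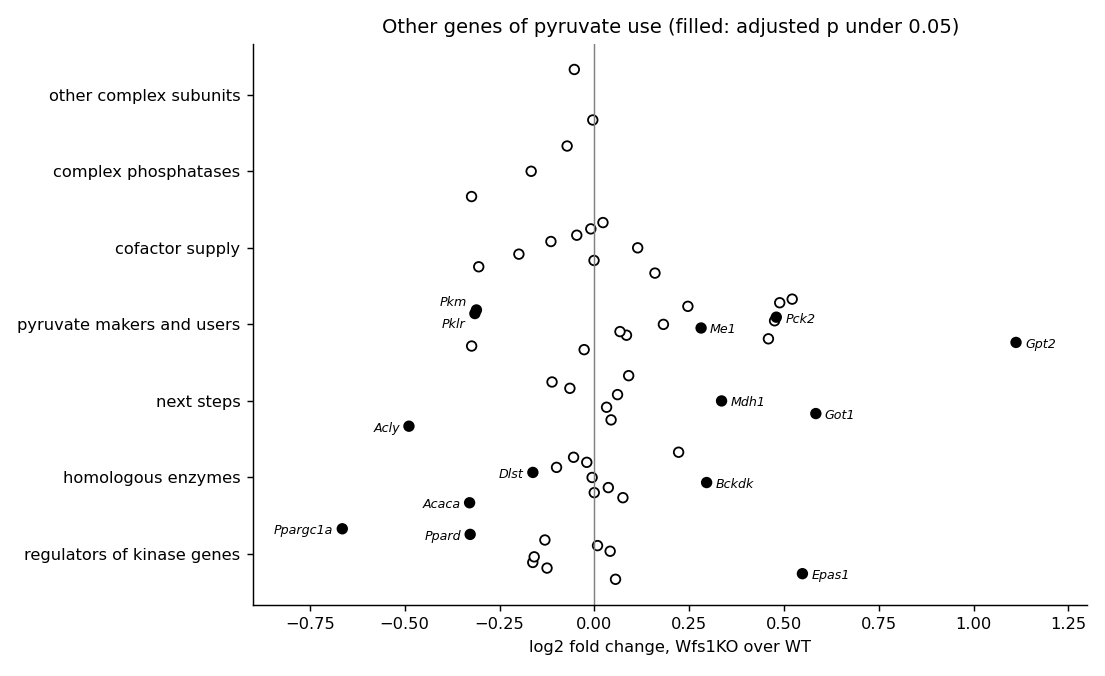
Log2 fold changes of Wfs1KO over WT for tested genes of each list of pyruvate use, 1 point per gene drawn, filled and named where the adjusted p was under 0.05. No gene is filled among the other complex subunits, the phosphatases or the cofactor genes, and Gpt2 lies farthest from 0 at 1.11.

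The genes whose profiles over the 8 libraries lay nearest to those of the 2 called genes were found by the root mean square difference of centred log2 CPM, among genes of at least 5 CPM on average. For Pcx they were the interleukin-1 receptor gene Il1r1 (0.056), Ctnnbip1 (0.058) and Bcar1 (0.058), with log2 fold changes of -0.63, -0.54 and -0.60. For Pdk1 they were Desi2 (0.034), Ggcx (0.037) and Samd8 (0.040), with log2 fold changes of 0.28, 0.26 and 0.26. These points share libraries and depth, and the likeness was given no test.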

How the data were processed

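Islet poly(A) RNA was sequenced from NEBNext Ultra II libraries, per the labels' protocols. The submitters' processing notes name STAR 2.6.0a, HOMER 4.11.1, DESeq2 and the build mm10. Raw exon counts, 1 row for each RefSeq gene, were deposited, made without a strand option, per the file headers. The authors' deposited comparison holds log2 fold changes and p-values, and their log2 values per library were not used here. Exon lengths are those of the count table, per the file headers.

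The main test was edgeR 4.0.16 under R 4.3.3 (TMM scaling, filterByExpr by group with a minimum count of 10 and total of 15, robust quasi-likelihood fit and F-test, Benjamini-Hochberg adjustment over 15733 genes). The procedure was also run on counts simulated with dispersions fitted to these data. Few genes were changed there, as many up as down, so the simulation does not test the TMM scaling. "Rose" and "fell" are used of genes with an adjusted p under 0.05. Adjusted p-values under left-out libraries, replicate pairs and the block are from the same test. Levels are CPM on TMM-scaled library sizes, with SD and n = 4. Nothing in the labels says that replicates came from separate animals, so p-values measure the spread between these samples.

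The members and gene lists were chosen with earlier results of these data known. Named genes were the 10 members, up to 3 called genes of each list with the smallest adjusted p, the other subunits and phosphatases, the 3 nearest profiles of each called member, Wfs1, Ins1 and Ins2. WT and Wfs1KO share replicate numbers, taken from the labels. As a check of pairing, each library's departures from its genotype mean were correlated between same-numbered libraries over genes, which are not independent replicates. The r values were 0.153, 0.443, 0.269 and 0.188. The Wfs1KO library that correlated best with a WT library had the same number in 1 of 4 cases, and the others matched within replicates 1 and 2 or within 3 and 4. The check therefore cannot tell pairing by number from a shared split of replicates 1 and 2 from 3 and 4. Results that use the numbers as pairs or as a block depend on a pairing that is not established. The main test has no block, and blocked values are given beside results whose call they change. Alternatives were DESeq2 1.42.0, limma-voom with sample quality weights (limma 3.58.1), other scalings and filters, the replicate block, pairs of replicates, the acinar markers as a covariate, and each library left out. Promoter windows are from RefSeq (GRCm38.p6), and overlaps and transcripts from GENCODE M21. For 1 gene of the lists the result is not reported here, and it is not drawn.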

Additional observations from a re-analysis of the deposited data

Results flagged for a closer look

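Among 44 groups of 4 libraries (the 10 genes and 12 ratios or shares in each genotype), 2 held a library apart from the other 3 by more than Dixon's 95% critical value of 0.829, and chance flags about 1 in 20 such groups. Pdk3 stood at 19.0 CPM in WT replicate 4 and at 17.2 to 17.4 CPM in the other WT libraries. The ratio of Pcx to Pdha1 RPKM was 0.628 in Wfs1KO replicate 1 and 0.589 to 0.594 in the other Wfs1KO libraries.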

How the results depend on the processing

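Pcx kept its direction and its call under all 20 alternatives, and Pdk1 under 17. The number of the 10 genes called higher was 1, but 2 with the replicate block, with replicates 1 and 2 blocked against 3 and 4, and without TMM scaling, where Pdk4 joined Pdk1 (log2 fold changes 0.19, 0.19 and 0.29), and 0 to 1 with 1 library left out, while 1 was called lower throughout. Over all genes 1635 were higher and 1335 lower, but 3171 and 708 without TMM scaling, where the median of all genes moved from 0.013 to 0.11, and 964 and 882 in replicates 3 and 4 alone. With 1 library left out, 1354 to 1460 were higher and 1019 to 1299 lower. The replicate block changed the calls of Pdk4, Me1 and Dlst and no other among the named genes refitted with it, which leaves out the cell type markers other than Ins1 and Ins2.

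Genes with a fold change near 0 changed sign, and of these Mpc2 was called in replicates 1 and 2 alone. Pdhb was -0.0089 with DESeq2, -0.0058 with limma-voom, -0.011 with DESeq2's size factors, -0.019 without the 20 most abundant genes, -0.0031 with a filter of 1 CPM, and -0.093 in replicates 3 and 4. Pdk3 was -0.00043, -0.00060, -0.0014 and -0.011 under the first 4 of these and -0.0081 in replicates 1 and 2. Mpc1 was -0.0086 without the 20 most abundant genes and -0.021 in replicates 1 and 2, Dlat was 0.0099 and Mpc2 -0.25 in replicates 3 and 4, and Dld was 0.0011 with no filter. Without TMM scaling Dlat was 0.048, Pdk2 0.014, Pdhx 0.046, Dld 0.097 and Pdpr 0.027. With 1 library left out, Pdhb ran from -0.037 to 0.025, Pdk3 from -0.017 to 0.047, Mpc1 from -0.081 to 0.086, Mpc2 from -0.041 to 0.11, Pdhx from -0.10 to 0.0056 and Dld from -0.032 to 0.028. The cause was not tested. Of 280 recomputed list counts 243 stayed within 1.5 times. The order of levels was the same by TPM, and Dlat and Pdk2 changed places with GENCODE lengths in WT only. By TPM, which uses no TMM scaling, Pdha1 stood at 84.9 ± 1.52 in WT and 102 ± 6.34 in Wfs1KO. Pdhb stood at 60.3 ± 1.78 and 71.5 ± 2.65, and neither gene overlapped between genotypes. Dlat overlapped (23.5 ± 0.742 and 26.9 ± 2.53), and Pcx stood at 75.6 ± 4.09 and 61.5 ± 4.02. TPM was not tested, and the like levels of Pdha1 and Pdhb in both genotypes hold on the TMM scale, not by TPM.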
